A study of Homo sapiens with 10 samples.

Results

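Electron transport and ATP synthesis by oxidative phosphorylation were followed here through 54 nuclear genes that encode subunits and assembly factors of respiratory complexes II to V, in heart muscle cells differentiated from the established human embryonic stem cell line H1. The members were 54 gene symbols looked up in a table of raw counts for 78932 gene identifiers, and all 54 were found and passed the filter on low counts. They comprise 4 subunits of complex II, 9 of complex III with the carrier cytochrome c, 14 subunits and 10 assembly factors of complex IV, and 16 genes of ATP synthase (complex V) with its inhibitor. Beating cells were transfected on day 9 of differentiation with a GapmeR at 50 nM, either the CLIPPER one or a control, and RNA was taken 48 hours later. A GapmeR is an antisense oligonucleotide that directs RNase H to cut the RNA it pairs with. There were 5 control and 5 knockdown libraries, all from this line, given the same transfection reagent, and the labels call the genotype of the control libraries WT and that of the others GapmeR Knockdown. The labels do not say that the replicates came from separate cultures, so the p-values measure the spread between these samples, which may be technical. The level of CLIPPER itself was not analysed here.

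Complex II (succinate dehydrogenase) passes electrons from succinate to ubiquinone, complex III passes them on to cytochrome c, and complex IV (cytochrome c oxidase) reduces oxygen. Complexes III and IV pump protons, and ATP synthase uses the resulting gradient to make ATP. Complex II is encoded wholly in the nucleus, whereas complexes III, IV and V also contain subunits encoded by mitochondrial DNA, and heart muscle holds these complexes at high levels.

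The libraries held 32879710 to 45052044 counts. Values are given in CPM, the gene's counts scaled to 1000000 counts of an effective library size that edgeR's TMM factors set, so a fold change is relative to the bulk of genes. The 54 genes took 0.874% to 0.995% of the counts in control and 1.19% to 1.24% in knockdown libraries. On the first principal component of all tested genes (90.2% of the variance) knockdown replicate 2, then 1, had the smallest distance to the control libraries. The mitochondrial genome took 11.5% and 10.9% of the counts in knockdown replicates 1 and 2, more in replicates 3 to 5, with a maximum of 17.5% in replicate 4, and 10.03% to 12.2% in the controls. Of 13 cardiomyocyte markers, 11 fell and none rose, and their summed level was 34271 to 54008 CPM in control and 13182 to 24012 CPM in knockdown libraries. Of 4 smooth muscle markers all fell (sum 1146 to 2388 against 474 to 871 CPM). Of 9 fibroblast and epicardial markers 8 were tested, 1 rose and 5 fell (1102 to 1192 against 841 to 988 CPM), with WT1 and TCF21 below 1 CPM in every library. Of 5 endothelial markers 3 were tested and 2 fell (29.3 to 49.9 against 8.24 to 16.3 CPM), with PECAM1, CDH5 and VWF below 1 CPM in every library. The 5 endoderm markers summed to 5.44 to 6.93 CPM in control and 10.8 to 19.8 CPM in knockdown libraries, with SOX17, FOXA2, AFP and TTR below 1 CPM in every library. The 5 pluripotency markers summed to 0.204 to 1.08 CPM in control and 3.06 to 5.09 CPM in knockdown libraries, with POU5F1, NANOG and SOX2 below 1 CPM in every library. The 2 that were tested, LIN28A and DPPA4, rose. No marker was at 0 in all 10 libraries. Over all 21033 tested genes 40.1% rose and 39.6% fell. The part of these shifts in the results that follow was not tested, and in bulk RNA fewer cells of a type and less RNA per cell cannot be told apart.

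More of the 54 genes were higher than lower after the knockdown. At an adjusted p below 0.05 in edgeR's quasi-likelihood test, 31 rose (57.4%), against 40.1% of all 21033 tested genes, and 9 fell (16.7%), against 39.6% of all tested genes. The 40 called genes were 74.1% of the members, and 79.7% of all tested genes were called. In 29 members the groups did not overlap, 24 of them higher in the knockdown. Such genes were 67.5% of all tested genes, 33.7% being higher and 33.8% lower. The median log2 fold change of the members was 0.38, and that of all tested genes 0.0056. Most changes were moderate: of the 31 rises 19 exceeded 1.5-fold and 2 exceeded 2-fold, and of the 9 falls 4 exceeded 1.5-fold and 3 exceeded 2-fold. With upper-quartile scaling, which moved the median of all tested genes to 0.20, 40 members rose and 5 fell, and the share of rises among called members went from 77.5% to 88.9% (from 50.3% to 56.8% over all tested genes). Without knockdown replicates 1 and 2, an alternative chosen after seeing the data, 39 members rose and 11 fell. Of the 22028 genes tested in that setting 41.1% rose and 41.4% fell. Among the members, 30 of the 31 rises and all 9 falls remained.

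**Figure D1:**
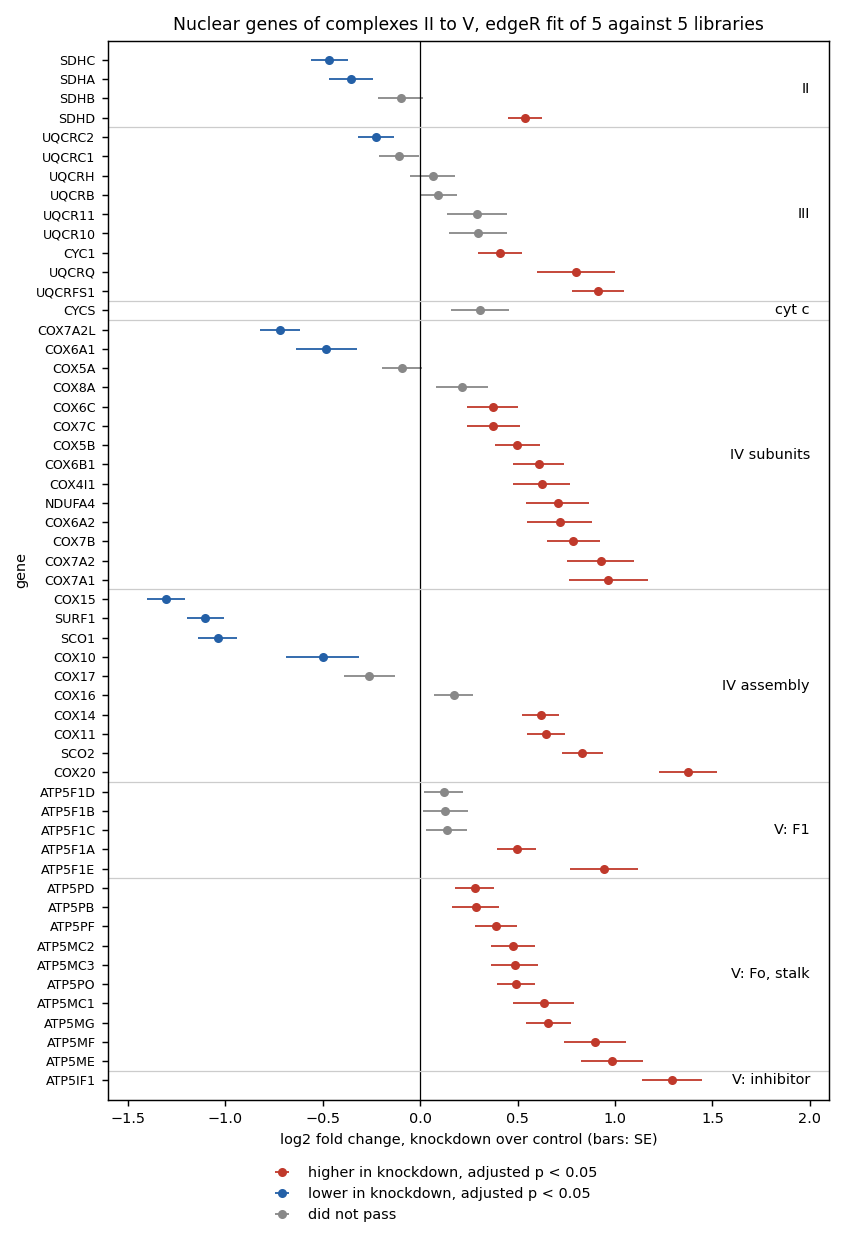
Log2 fold change (knockdown over control, x axis) of the 54 genes, grouped by complex, with bars for 1 SE and colours for the edgeR call. All 10 genes of the Fo part and stalks of ATP synthase lie to the right of 0, from 0.28 to 0.99, whereas the assembly factors of complex IV spread from -1.30 (COX15) to 1.38 (COX20).

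Promoters of genes for respiratory subunits are known for binding sites of NRF1, of ETS factors such as GABPA, and of YY1, so the windows from 250 bases before to 50 bases after the gene start in RefSeq (GRCh38.p14) were searched on both strands. Of the 54 genes 42 had such windows, 51 windows in all. The NRF1 motif, whose letters stand in capitals in the stretches below, was found for 10 of the 42 genes (23.8%), against 6.98% of all 27305 genes in the table. The ETS motif CCGGAAGT was found for 13 (31.0%, against 4.95%), and the YY1 motif for 4 (9.52%, against 1.46%). The 27305 genes outnumber the 21033 tested here and so include untested ones, whereas all 42 members were tested. No match of one motif overlapped a match of another. At least 1 of the 3 motifs was present for 21 of the 42 genes (50%, against 12.3% of all 27305 genes). These were 9 of 23 genes that rose, 4 of 8 that fell and 8 of 11 that did not pass. A match is a description of the letters and not evidence of binding. The following stretches show that matches stand before genes that rose (SDHD, UQCRFS1, ATP5ME, UQCRQ, COX5B) and before genes that fell (SDHA, COX10). Each is written 5′ to 3′ on the strand of the gene, with the match in capitals. SDHA has NRF1 matches 19, 68, 117 and 166 bases before the gene start, all on the opposite strand. The match at 117 is shown, and its capitals are the reverse complement of the motif. Further matches of the motif shown lie 219 bases before the start for ATP5ME, 5 for COX5B and 19 for COX10.
SDHD, NRF1 match, chr11:112086748-112086787, plus strand: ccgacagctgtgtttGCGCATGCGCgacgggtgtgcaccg
UQCRFS1, NRF1 match, chr19:29213158-29213197, minus strand: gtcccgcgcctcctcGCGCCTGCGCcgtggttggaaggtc
ATP5ME, NRF1 match, chr4:674426-674465, minus strand: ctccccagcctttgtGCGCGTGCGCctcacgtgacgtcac
SDHA, NRF1 match, chr5:218188-218227, plus strand: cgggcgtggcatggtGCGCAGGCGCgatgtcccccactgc
UQCRQ, ETS match, chr5:132866573-132866610, plus strand: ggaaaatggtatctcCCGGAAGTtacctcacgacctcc
COX5B, ETS match, chr2:97646010-97646047, plus strand: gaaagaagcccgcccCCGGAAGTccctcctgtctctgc
COX10, ETS match, chr17:14069370-14069407, plus strand: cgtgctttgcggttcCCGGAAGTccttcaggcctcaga
The first bases of these matches lie 110, 31, 174, 117, 54, 37 and 119 bases before the RefSeq gene start, in the order given.

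Of the 4 subunits of complex II 1 rose (25%, against 40.1% of all tested genes) and 2 fell (50%, against 39.6%), with a median log2 fold change of -0.23. With upper-quartile scaling 1 rose and 1 fell (against 45.5% and 34.6% of all tested genes). Without knockdown replicates 1 and 2 1 rose and 3 fell (against 41.1% and 41.4%). SDHD, a membrane anchor of the complex (chromosome 11, 112086824 to 112120016, plus strand, GRCh38), gave 80.1, 80.8, 64.4, 79.2 and 70.7 CPM in controls 1 to 5 and 108, 120, 106, 108 and 102 CPM in knockdown replicates 1 to 5. All knockdown libraries lay above all controls, and SDHD rose 1.45-fold (log2 fold change 0.54 ± 0.0875 SE, adjusted p = 0.0001). SDHC, the other membrane anchor (chromosome 1, 161314381 to 161363206, plus strand), gave 71.2, 75.2, 60.4, 70.4 and 63.3 CPM in the controls and 49.1, 58.7, 46.5, 46.5 and 45.4 CPM in the knockdown. The groups did not overlap, and SDHC fell 1.38-fold (log2 fold change -0.47 ± 0.0956 SE, adjusted p = 0.00064). SDHA, the flavoprotein that oxidises succinate, gave 386, 370, 322, 351 and 298 CPM in the controls and 253, 331, 257, 253 and 256 CPM in the knockdown. Replicate 2 alone reached into the control range, and SDHA fell by 0.35 ± 0.111 (SE) on the log2 scale (adjusted p = 0.011), a call lost under upper-quartile scaling (-0.16). SDHB, the iron-sulfur subunit that carries the electrons onward, had a log2 fold change of -0.10 ± 0.116 (SE), did not pass, and changed sign under upper-quartile scaling (0.09). The promoter stretches of SDHD and SDHA above both hold the NRF1 motif, before a gene that rose and a gene that fell.

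Of the 9 subunits of complex III 3 rose (33.3%, against 40.1% of all tested genes), 1 fell (11.1%, against 39.6%) and 5 did not pass. Their median log2 fold change was 0.29. Counted with cytochrome c, 7 of 10 rose and none fell under upper-quartile scaling (against 45.5% and 34.6% of all tested genes). Without knockdown replicates 1 and 2 8 of these 10 rose and 1 fell (against 41.1% and 41.4%). UQCRFS1, the Rieske iron-sulfur protein that takes electrons from ubiquinol, gave 191, 188, 162, 177 and 163 CPM in controls and 264, 266, 364, 416 and 350 CPM in knockdown libraries. It rose 1.88-fold (log2 fold change 0.91 ± 0.135 SE, adjusted p = 4.6e-05), and the groups did not overlap. Of 179 annotated pseudogenes of the members only 2 had enough counts to be tested. ATP5PDP4 did not pass (0.92 ± 0.412 SE on the log2 scale), and UQCRFS1P1 rose, with 5.58 ± 1.11 CPM in the controls (SD, n = 5) and 10.2 ± 2.41 CPM after knockdown (0.87 ± 0.185 SE on the log2 scale). Its counts amounted to 3.19% of those of UQCRFS1 in control and 3.06% in knockdown libraries, and reads of near-identical copies may have been split between them. UQCRQ, a small subunit that binds near cytochrome b, gave 138, 128, 114, 121 and 109 CPM in the controls and 139, 135, 253, 283 and 252 CPM in the knockdown. Its rise (log2 fold change 0.80 ± 0.202 SE, adjusted p = 0.0029) was seen in replicates 3 to 5, whereas replicate 2 lay inside the control range and replicate 1 just above it. CYC1, the cytochrome c1 that hands electrons to cytochrome c, gave 147, 153, 112, 129 and 117 CPM in the controls and 148, 171, 179, 196 and 180 CPM in the knockdown, and rose 1.33-fold (log2 fold change 0.41 ± 0.112 SE, adjusted p = 0.0047) with replicate 1 inside the control range. UQCRC2, a core protein, gave 299, 316, 265, 290 and 265 CPM in the controls and 234, 282, 234, 244 and 232 CPM in the knockdown. It fell 1.17-fold (log2 fold change -0.23 ± 0.0938 SE, adjusted p = 0.040). This call did not hold without control replicate 1, 2 or 4 or knockdown replicate 1, 3, 4 or 5 (log2 fold change -0.20 to -0.25), nor under DESeq2's size factors (-0.20) or upper-quartile scaling (-0.03). The partner core protein UQCRC1 (-0.11 ± 0.103 SE), the ubiquinone-binding subunit UQCRB (0.09 ± 0.0958) and the hinge protein UQCRH (0.06 ± 0.115) did not pass, and UQCRC1 changed sign under upper-quartile scaling (0.09). UQCR10 (0.30 ± 0.148) and UQCR11 (0.29 ± 0.154), small subunits, did not pass either. They passed when knockdown replicate 1 (0.39 and 0.40) or 2 (0.35 and 0.37) was left out and under upper-quartile scaling (0.50 each), as did UQCRB under that scaling (0.30). CYCS, cytochrome c itself, ran from 314 to 458 CPM in controls and from 367 to 566 CPM in knockdown libraries and did not pass (0.31 ± 0.147), but passed without knockdown replicate 1 (0.40) and under upper-quartile scaling (0.51).

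**Figure D2:**
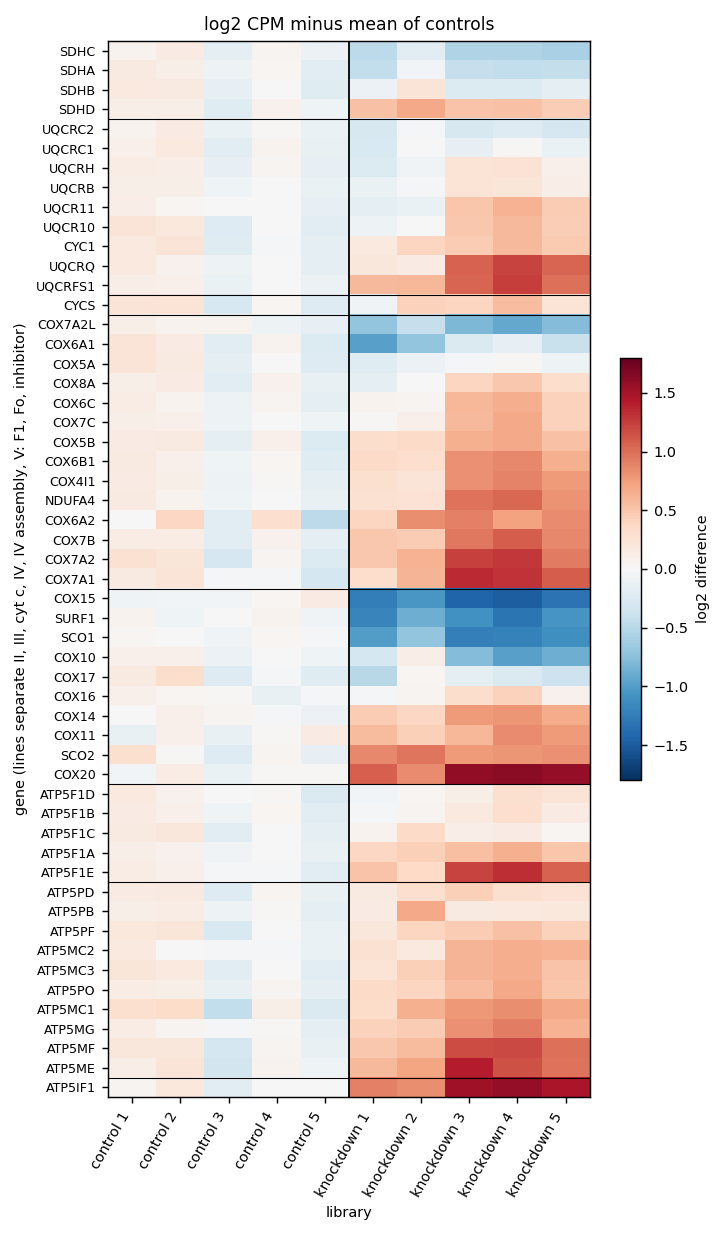
Log2 CPM of each of the 54 genes (rows, ordered as by complex and fold change) in each library (columns), as the difference from the mean of the 5 controls. Knockdown replicates 1 and 2 are paler than replicates 3 to 5 for most of the genes that rose, while SDHD and SCO2 are similar in all 5 knockdown libraries.

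The 5 knockdown libraries did not show the same strength. Over the 54 genes the median log2 difference from the control mean was 0.17, 0.28, 0.50, 0.61 and 0.44 in knockdown replicates 1 to 5, and -0.15 to 0.14 in the controls. Replicate 1 lay above all 5 controls for 26 genes and replicate 4 for 40. Of the 31 genes that rose, the knockdown library nearest to the control mean was replicate 1 for 17, replicate 2 for 12 and one of the others for 2, namely SDHD and SCO2. Of the 9 that fell, replicate 2 was nearest for 8, and for COX6A1 it was replicate 4.

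Structural subunits of complex IV were mostly higher. Of the 14, 10 rose (71.4%, against 40.1% of all tested genes) and 2 fell (14.3%, against 39.6%). The median log2 fold change was 0.55. The mitochondrial genome encodes the 3 catalytic core subunits, and the nuclear subunits surround them. COX7B, a small subunit near the core, gave 161, 163, 130, 156 and 132 CPM in controls and 207, 203, 286, 315 and 268 CPM in knockdown libraries, and rose 1.73-fold (log2 fold change 0.79 ± 0.138 SE, adjusted p = 0.00019). COX4I1, the common form of subunit IV, rose by 0.62 ± 0.145 (SE) to 517 ± 108 CPM from 336 ± 31.1 CPM (SD, n = 5). NDUFA4, first assigned to complex I and now counted with complex IV, rose by 0.71 ± 0.16 (SE), COX6B1, which faces the intermembrane space, by 0.61 ± 0.13, and COX5B, a zinc-binding matrix subunit, by 0.50 ± 0.115. COX6C (0.37 ± 0.131) and COX7C (0.38 ± 0.134), both small membrane subunits, passed with overlap between the groups. The COX6C call did not hold without knockdown replicate 3 (0.32), control replicate 3 (0.33) or control replicate 5 (0.31). That of COX7C did not hold without knockdown replicate 3 (0.33) or control replicate 3 (0.33), 4 (0.35) or 5 (0.33). COX8A did not pass (0.22 ± 0.134), although it did without knockdown replicate 1 (0.31) and under upper-quartile scaling (0.42). COX5A, which binds the matrix side, did not pass (-0.09 ± 0.105) and changed sign under upper-quartile scaling (0.11).

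COX7A2L and COX6A1 were the subunits of complex IV that fell. COX7A2L (also known as SCAF1), a relative of subunit VIIa that joins complexes III and IV into supercomplexes, gave 69.4, 67.2, 67.5, 60.6 and 58.1 CPM in controls and 39.5, 48.2, 37.0, 33.9 and 37.6 CPM in knockdown libraries. The groups did not overlap, and COX7A2L fell 1.65-fold (log2 fold change -0.72 ± 0.102 SE, adjusted p = 3.3e-05). It spans 91.5 kb, and the other subunit genes of the complex span at most 20.5 kb. COX6A1, the common form of subunit VIa, gave 200, 188, 148, 178 and 143 CPM in controls and 86.5, 103, 142, 153 and 129 CPM in knockdown libraries. Here replicates 1 and 2 lay farthest below the controls and replicate 4 reached into their range. COX6A1 fell 1.40-fold (log2 fold change -0.48 ± 0.158 SE, adjusted p = 0.014), a call lost under upper-quartile scaling (-0.28).

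Subunits VIa and VIIa also have forms made mainly in striated muscle, and these were scarce in both groups. COX6A2, the muscle form of subunit VIa, gave 5.98, 7.71, 5.22, 7.33 and 4.29 CPM in controls and 7.82, 10.6, 11.2, 9.815 and 10.7 CPM in knockdown libraries, and rose 1.64-fold (log2 fold change 0.72 ± 0.166 SE, adjusted p = 0.0016). Per kb of merged exon, COX6A2 made up 9.12% ± 1.31 of both forms (SD, n = 5) without and 19.1% ± 2.64 with the knockdown. The lowest knockdown share was 15.4% and the highest control share 10.5%. The exact permutation test gave a two-sided p of 0.00794, the smallest possible for 5 against 5, and an adjusted p of 0.0476 over 6 shares. The difference of 10.01 percentage points became 5.91 with canonical transcript lengths, an alternative chosen after seeing the data, and 4.31 without scaling by length, with the same adjusted p. With 1 library left out it was 9.16 to 11.0 percentage points and every adjusted p but 2 was 0.0952, since 4 against 5 cannot give a p below 0.0159. COX6A2 shares 38.3% of its merged exon length with an antisense RNA that had no counts in the controls and 0.0684 ± 0.0268 CPM in the knockdown. The share also rests on the counts of COX6A1. COX6A1 shares 13.1% of its merged exon length with a protein-coding locus without a symbol on its own strand. That locus had 0.0359 ± 0.028 CPM in the controls and 1.01 ± 0.255 CPM in the knockdown (SD, n = 5). COX7A1, the muscle form of subunit VIIa, gave 3.51, 3.67, 3.04, 3.04 and 2.51 CPM in controls and 3.89, 4.78, 7.91, 7.73 and 6.65 CPM in knockdown libraries, and rose 1.95-fold (log2 fold change 0.97 ± 0.204 SE, adjusted p = 0.00082). COX7A2, the common form, rose alongside it, from 117, 113, 78.9, 101 and 82.3 CPM to 136, 150, 228, 235 and 186 CPM (log2 fold change 0.93 ± 0.172 SE, adjusted p = 0.0003). The COX7A1 share averaged 9.59% ± 0.955 (SD, n = 5) without and 9.69% ± 0.75 with the knockdown (two-sided p = 0.849, exact permutation test). COX4I2, a form of subunit IV known from lung and low oxygen, had 0 counts in the 5 control libraries, which allows at most 0.0153 CPM (3 counts over the group), and 8 counts in the 5 knockdown libraries. Its share of subunit IV did not pass (0.0584 percentage points, adjusted p = 0.143 in the exact permutation test) but did without knockdown replicate 1 (0.0731). COX7B2, a testis form, was at 0 in all libraries, and COX6B2 and COX8C had too few counts to be tested.

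**Figure D3:**
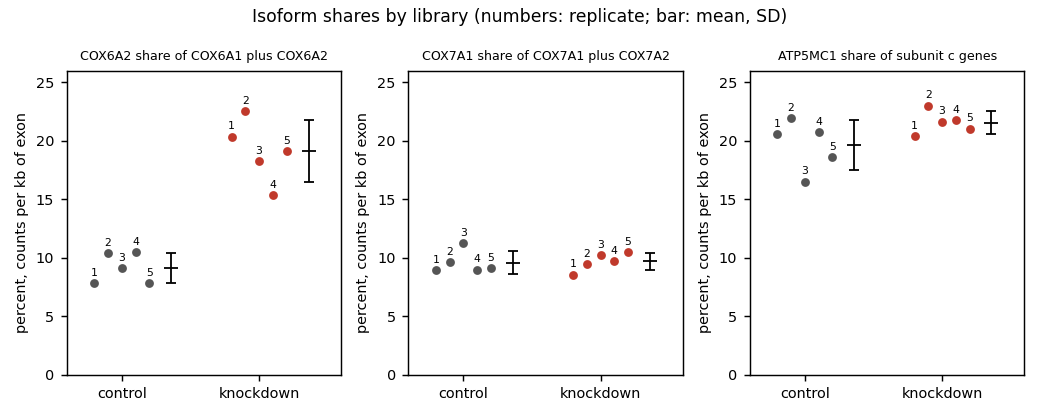
Share of the muscle isoform COX6A2, of the muscle isoform COX7A1 and of ATP5MC1 (y axis, percent of counts per kb of merged exon) in each library, with replicate numbers and a bar for the mean and SD. The COX6A2 share is 7.81% to 10.5% in controls and 15.4% to 22.5% in knockdown libraries, whereas the groups overlap for COX7A1 and ATP5MC1.

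Of the 10 assembly factors of complex IV 4 rose and 4 fell (40% each, near the 40.1% and 39.6% of all tested genes). Their median log2 fold change of -0.04 changed sign under upper-quartile scaling (0.15), where 5 rose and 3 fell (against 45.5% and 34.6% of all tested genes). COX15, the heme A synthase, fell farthest of the 54 genes. It gave 44.1, 45.2, 45.1, 47.8 and 51.6 CPM in controls and 19.7, 22.6, 17.2, 16.6 and 18.5 CPM in knockdown libraries, 2.47-fold lower (log2 fold change -1.30 ± 0.0972 SE, adjusted p = 2.1e-07). COX10, which makes the heme O that COX15 converts, gave 26.8, 27.0, 23.4, 25.3 and 24.0 CPM in controls and 20.3, 27.6, 14.7, 12.8 and 13.7 CPM in knockdown libraries. Knockdown replicate 2 lay above all controls and the other 4 below them. COX10 fell by 0.50 ± 0.187 (SE) on the log2 scale (adjusted p = 0.026), a call lost without knockdown replicate 3 (-0.43), 4 (-0.39) or 5 (-0.41) and under upper-quartile scaling (-0.31). SURF1, which helps to insert heme A and is a gene of Leigh syndrome, gave 24.8, 22.3, 23.7, 24.7 and 22.7 CPM in controls and 10.3, 12.8, 11.1, 9.45 and 11.3 CPM in knockdown libraries, 2.15-fold lower (log2 fold change -1.10 ± 0.0947 SE, adjusted p = 5.4e-07). SCO1, a copper chaperone for the core subunit COX2, gave 74.3, 72.9, 69.3, 74.0 and 70.6 CPM in controls and 36.1, 43.95, 30.8, 31.2 and 33.7 CPM in knockdown libraries, 2.05-fold lower (log2 fold change -1.04 ± 0.101 SE, adjusted p = 1.4e-06). For COX15, SURF1 and SCO1 the groups did not overlap, and none of the alternative settings tried changed the call.

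The related copper chaperone SCO2 went the other way, from 13.0, 10.8, 9.07, 11.0 and 9.59 CPM to 19.3, 20.6, 17.9, 18.4 and 18.8 CPM, 1.78-fold higher (log2 fold change 0.83 ± 0.105 SE, adjusted p = 1.3e-05). COX20, a chaperone of newly made COX2, gave 37.3, 42.5, 35.5, 39.2 and 39.2 CPM in controls and 81.5, 69.6, 117, 119 and 116 CPM in knockdown libraries, 2.59-fold higher (log2 fold change 1.38 ± 0.149 SE, adjusted p = 3.4e-06) and the largest rise among the members. COX11, which delivers copper to the core subunit COX1, gave 29.9, 35.0, 30.0, 33.6 and 36.6 CPM in controls and 49.1, 44.4, 49.7, 59.4 and 55.8 CPM in knockdown libraries (log2 fold change 0.65 ± 0.0989 SE, adjusted p = 6.3e-05). COX14, which acts in the synthesis of COX1, rose by 0.62 ± 0.0964 (SE). COX17, the donor of copper to SCO1 and COX11, did not pass (-0.26 ± 0.132), although it did without knockdown replicate 2 (-0.35) or control replicate 3 or 5 (-0.34 each). COX16 did not pass (0.17 ± 0.102), although it did under upper-quartile scaling (0.37). Without knockdown replicates 1 and 2 COX17 (-0.30) and COX16 (0.26) passed as well. The counts of several of these genes are uncertain because their exons overlap other genes and, although the library kit keeps strand, the strand setting of the counting is not given in the sources used here. Of the 54 genes 33 share exon bases with another gene, and 21 of these rose and 6 fell, while of the 21 that share none 10 rose and 3 fell. SCO2 shares 62.1% of its merged exon length with genes on the opposite strand, among them NCAPH2 (log2 fold change 0.34 ± 0.0886 SE), and 26.1% with TYMP on its own strand (2.00 ± 0.192). COX20 shares 76.6% with HNRNPU on the opposite strand, which itself rose by 1.70 ± 0.117 (SE) to 1303 ± 172 CPM (SD, n = 5). COX15 shares 20.7% with a protein-coding locus without a symbol on its own strand and 7.17% with ENTPD7 on the opposite strand (-1.01 ± 0.155), and COX17 20.0% with POPDC2, which fell by 2.13 on the log2 scale.

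**Figure D4:**
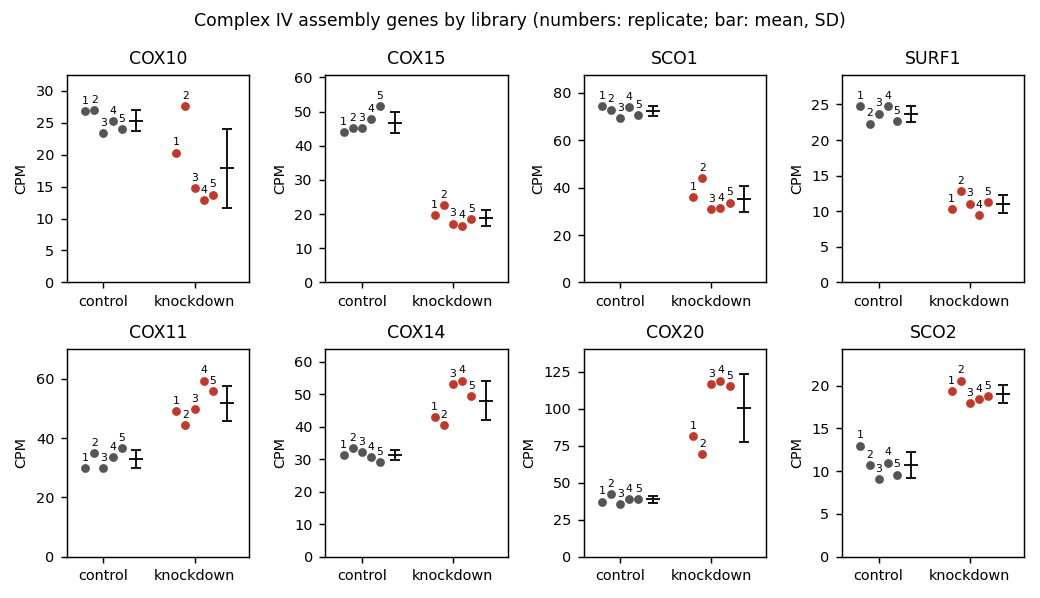
CPM (y axis, from 0) of 8 assembly genes of complex IV in control and knockdown libraries, with replicate numbers and a bar for the mean and SD. COX15, SCO1 and SURF1 are lower in every knockdown library than in any control, COX11, COX14, COX20 and SCO2 are higher in every one, and COX10 overlaps through knockdown replicate 2.

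Of the 16 genes of ATP synthase 13 rose (81.25%, against 40.1% of all tested genes) and none fell (against 39.6%). All 10 genes of the membrane part (Fo) and the stalks rose (median log2 fold change 0.49), as did 2 of the 5 genes of the F1 head (median 0.14). The F1 head makes ATP. Its alpha subunit ATP5F1A gave 934, 920, 830, 876 and 796 CPM in controls and 1123, 1169, 1266, 1354 and 1231 CPM in knockdown libraries, 1.41-fold higher without overlap (log2 fold change 0.50 ± 0.101 SE, adjusted p = 0.00063). The epsilon subunit ATP5F1E gave 58.5, 56.7, 52.5, 51.7 and 46.7 CPM in controls and 76.0, 67.8, 124, 133 and 111 CPM in knockdown libraries, 1.92-fold higher (log2 fold change 0.94 ± 0.175 SE, adjusted p = 0.0003). ATP5F1E shares 23.2% of its merged exon length with TUBB1 on the opposite strand, so the counts of ATP5F1E are uncertain. TUBB1 itself did not pass (0.37 ± 0.304). The catalytic beta subunit ATP5F1B did not pass (0.13 ± 0.116), and neither did the central-shaft subunits ATP5F1C (0.14 ± 0.104) and ATP5F1D (0.12 ± 0.0997). These 3 passed as higher under upper-quartile scaling (0.33, 0.33 and 0.32). Within the head the alpha and beta genes, whose proteins occur in equal numbers, had fold changes of 1.41 and 1.09, a difference that was not tested. Per kb of the canonical transcript, ATP5F1B had the highest control level of the 54 genes (921 CPM per kb) and SCO1 the lowest (7.54 CPM per kb), where annotated transcript ends may be longer than the RNA in these cells.

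Among the Fo and stalk genes, ATP5ME (subunit e), which takes part in dimer formation, gave 78.3, 84.3, 57.3, 75.4 and 68.1 CPM in controls and 108, 118, 192, 160 and 142 CPM in knockdown libraries, 1.98-fold higher (log2 fold change 0.99 ± 0.159 SE, adjusted p = 9.5e-05). ATP5MG (subunit g), its partner in the dimer, gave 144, 135, 129, 132 and 116 CPM and 174, 179, 233, 248 and 203 CPM (log2 fold change 0.66 ± 0.114 SE, adjusted p = 0.00018). ATP5MF (subunit f) gave 108, 107, 74.5, 96.0 and 85.3 CPM and 131, 138, 210, 211 and 185 CPM (log2 fold change 0.90 ± 0.159 SE, adjusted p = 0.00021). For these 3 genes all knockdown libraries lay above all controls. ATP5ME shares 61.3% of its merged exon length with MYL5 on the opposite strand, and ATP5MF 8.64% with PTCD1 and the read-through locus ATP5MF-PTCD1, so their counts are uncertain. The read-through locus fell, with 9.20 ± 1.40 CPM before and 0.331 ± 0.578 CPM after knockdown, and PTCD1 rose, with 22.1 ± 3.45 and 62.8 ± 34.5 CPM (SD, n = 5). For the stalk subunits the log2 fold change was 0.49 ± 0.0996 (SE) for ATP5PO, 0.39 ± 0.109 for ATP5PF, 0.28 ± 0.119 for ATP5PB and 0.28 ± 0.1 for ATP5PD. ATP5PF shares 37.3% of its merged exon length with GABPA and JAM2 on the opposite strand. Both rose (0.92 ± 0.0765 and 0.57 ± 0.126). ATP5PD shares 19.1% with opposite-strand genes, among them KCTD2, which did not pass (-0.15 ± 0.0791). ATP5PO shares 15.5% with a locus on its own strand and 7.76% with LINC00649 on the opposite strand. The counts of ATP5PF, ATP5PD and ATP5PO are therefore uncertain too. The ATP5PB call did not hold without knockdown replicate 2 (0.16) or any control replicate (0.22 to 0.30), and that of ATP5PD did not hold without knockdown replicate 3 (0.25) or control replicate 3 (0.20) or 5 (0.22).

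Subunit c, which forms the rotor ring, has the same mature protein encoded by 3 genes, and all 3 rose. ATP5MC1 gave 109, 111, 64.8, 94.8 and 73.6 CPM in controls and 111, 138, 153, 159 and 142 CPM in knockdown libraries (log2 fold change 0.63 ± 0.157 SE, adjusted p = 0.0025). ATP5MC2 gave 194, 171, 168, 167 and 158 CPM and 206, 194, 261, 270 and 265 CPM (0.48 ± 0.114, adjusted p = 0.0020). ATP5MC3 gave 430, 416, 319, 372 and 322 CPM and 439, 494, 561, 579 and 527 CPM (0.48 ± 0.121, adjusted p = 0.0026). Knockdown replicate 2 of ATP5MC2 lay within the control range, and for the other 2 genes replicate 1 came within 10 CPM of the highest control. Per kb of merged exon, ATP5MC3 made up 54.9% ± 0.264 of the 3 in control and 53.9% ± 1.03 in knockdown libraries, ATP5MC2 25.4% ± 2.31 and 24.6% ± 1.78, and ATP5MC1 19.7% ± 2.13 and 21.6% ± 0.972 (SD, n = 5). None of these shares passed the exact permutation test (two-sided p = 0.0952, 0.524 and 0.119), although the ATP5MC3 share did without knockdown replicate 2 (-1.41 percentage points). ATP5IF1, the inhibitor that blocks ATP hydrolysis by the enzyme, gave 59.6, 65.8, 50.0, 57.5 and 57.4 CPM in controls and 108, 104, 166, 173 and 160 CPM in knockdown libraries. It rose 2.45-fold (log2 fold change 1.29 ± 0.155 SE, adjusted p = 7.9e-06), the second largest rise of the 54 genes, with no overlap.

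Gene span, the length from start to end with introns, differed among the members and went with the direction. The median span was 10.6 kb for the 54 genes and 33.9 kb for the 14777 tested coding genes. Of the 9 members spanning up to 3 kb 7 rose and 1 fell, COX6A1, and of the 17 spanning 3 to 10 kb 11 rose and 1 fell, SURF1. Of the 18 spanning 10 to 30 kb 10 rose and 2 fell, and of the 9 spanning 30 to 100 kb 3 rose and 4 fell. The 1 member over 100 kb, COX10, fell. The tested coding genes up to 3 kb rose in 74.7% and fell in 6.94% of cases, and those of 3 to 10 kb in 64.4% and 15.2%. Those of 10 to 30 kb did so in 48.9% and 29.1%, those of 30 to 100 kb in 23.2% and 57.0%, and those over 100 kb in 5.65% and 85.1%. The median log2 fold change was 0.72 for members and 0.99 for coding genes up to 3 kb, 0.48 and 0.71 at 3 to 10 kb, 0.33 and 0.27 at 10 to 30 kb, and -0.10 and -0.48 at 30 to 100 kb. Spearman's rank correlation of span with log2 fold change was -0.422 across the 54 genes, which come from the same libraries and cannot serve as replicates. SURF1 (4.92 kb), COX15 (21.3 kb) and SCO1 (25.9 kb) had the lowest log2 fold changes of their span ranges, and SDHD (33.2 kb), ATP5MG (31.9 kb) and ATP5MC2 (44.7 kb) were the 3 that rose in the range where the median coding gene was lower. The part of gene span in these differences was not tested.

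**Figure D5:**
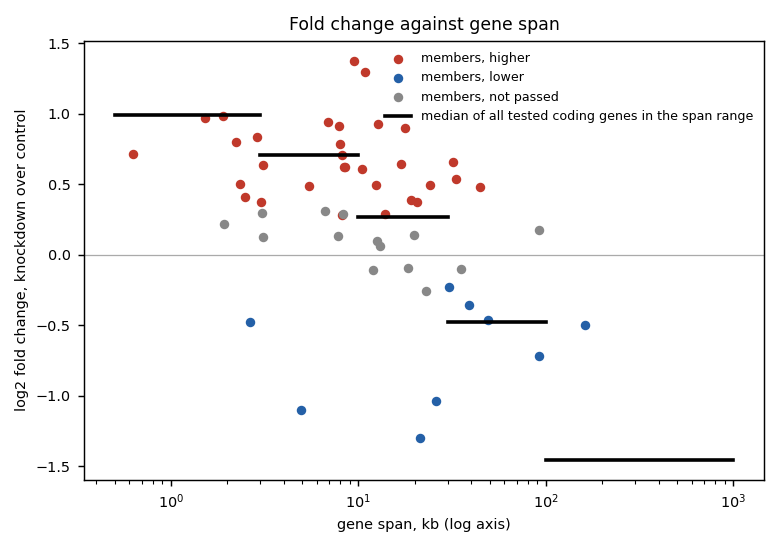
Log2 fold change (y axis) of the 54 genes against gene span in kb (log x axis), coloured by call, with black lines at the median of all tested coding genes in each span range. Members up to 3 kb have a median of 0.72 where coding genes have 0.99, and COX15, SCO1 and SURF1 lie far below the line of their range.

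A list of 42 further genes holds assembly factors of these complexes, factors for the expression of complex IV and further subunits of ATP synthase. Of 41 tested 20 rose (48.8%, against 40.1% of all tested genes) and 14 fell (34.1%, against 39.6%), and the median log2 fold change was 0.18. The 34 called genes were 82.9% of those tested, near the 79.7% over all genes. For complex II, SDHAF2, which attaches the flavin to SDHA, rose by 0.61 ± 0.0722 (SE) and SDHAF1, which serves the iron-sulfur subunit, by 1.25 ± 0.177, while SDHAF4 fell by 0.94. For complex III 4 of 9 rose and 3 fell, with UQCC6 (1.53 ± 0.123) and UQCC5 (1.14 ± 0.134) higher and UQCC1 (-0.98 ± 0.114) and TTC19 (-0.73 ± 0.135) lower. For complex IV 9 of 20 rose and 8 fell. COX19, a copper-related factor, rose by 1.14 ± 0.0888 and TACO1, the translational activator of COX1, by 0.89 ± 0.0834. OXA1L, which inserts proteins into the inner membrane, fell by 0.75 and COA1 by 1.05. For ATP synthase 4 of 8 tested rose and 2 fell, a count that includes the further subunits ATP5MJ and ATP5MK. TMEM70, which helps to build the c-ring, rose by 1.63 ± 0.165 and FMC1 by 1.28 ± 0.139, while the F1 assembly chaperones ATPAF1 and ATPAF2 fell by 1.00 and 0.70. Several of these genes share merged exon length with genes on their own strand: 44.8% for SDHAF2, 40.9% for TACO1, 26.5% for FMC1 and 17.7% for COX19. UQCC5 shares 20.1% and UQCC6 18.2% with genes on the opposite strand. Their counts are uncertain for the reason given above for members.

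The subunits of complexes III to V that the mitochondrial genome encodes did not pass the test. The log2 fold change was 0.24 ± 0.215 (SE) for MT-CO1, 0.21 ± 0.203 for MT-CO2 and 0.10 ± 0.189 for MT-CO3, the catalytic core of complex IV, 0.15 ± 0.21 for the cytochrome b gene MT-CYB, and 0.10 ± 0.192 and 0.23 ± 0.197 for MT-ATP6 and MT-ATP8. Mean ± SD of MT-CO1 over 5 libraries was 27171 ± 2756 CPM for the control and 32154 ± 9345 CPM for the knockdown group. The wide spread in the knockdown group follows the split of its libraries given above for the mitochondrial genome as a whole. Over all tested genes 40.1% rose and 39.6% fell. Nuclear complex I subunits, set beside the members, rose in 20 (54.1%) and fell in 6 (16.2%) of 37 cases, with a median log2 fold change of 0.26. For complexes II to V 31 (57.4%) rose and 9 (16.7%) fell of 54, with a median of 0.38. The difference between these lists was not tested.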

How the data were processed

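Total RNA was sequenced from 5 control and 5 knockdown libraries. Per the labels' protocols, libraries were made with a stranded, rRNA-depleting kit, trimmed with Trim Galore 0.65, aligned to GRCh38 with STAR 2.7.0 and counted per gene with HTSeq using GENCODE 38. The deposited values are raw counts per gene. The table lists identifiers numbered up to 310557 and more of them than GENCODE 44 holds, so the release behind the counts is uncertain, and with it the exon overlaps and lengths used here. Of 78932 identifiers 61481 matched GENCODE 44, which gave names, spans and exon overlaps; the others held 0.25% to 0.408% of counts. Library totals of 32879710 to 45052044 counts left every member with at least 99 counts in each library. Genes kept by filterByExpr (21033) were tested with edgeR 4.0.16 (TMM, robust quasi-likelihood, Benjamini-Hochberg adjustment over all tested genes, threshold 0.05) in R 4.3.3. Tested on data simulated for this comparison over 20632 genes, it found 28.4% of 67 genes altered by 1.5-fold. At 2-fold it found 80.6% of 67 and at 4-fold 98.5% of 66, and 8 of its 146 calls were false. Few genes were altered in those data, whereas 79.7% of all tested genes were called between the real groups. The recovery with that many called genes was not tested, nor was the share of false calls. Every pair of libraries differed beyond sampling noise, with a chi-square over its degrees of freedom of 4.13 or more. For isoform shares an exact permutation test enumerated 252 labelings (scipy 1.17.1). Alternatives were DESeq2 1.42.0 and its size factors, upper-quartile scaling, limma 3.58.1 (voom), other filters, no robust dispersion, removal of mitochondrial genes, the replicate number as a block, and leaving out libraries. Values for every library are given for up to 3 rising and 3 falling genes with the smallest p in each group of subunits, for every member that fell and for the isoform sets; of each further list up to 2 rising and 2 falling genes with the smallest p are named. The members and lists were chosen with earlier results of these data known. Promoter windows are from RefSeq (GRCh38.p14).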

Additional observations from a re-analysis of the deposited data

Results flagged for a closer look

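In 6 of 120 groups of 5 libraries 1 library stood apart from the other 4 by Dixon's criterion, and chance flags about 5% of groups. In 5 of them it was knockdown replicate 2, the library nearest to the controls on the first principal component. Its level of SDHA was 331 CPM, and the other knockdown libraries lay between 253 and 257 CPM. It had 72.6 CPM of SDHB (others 52.0 to 57.5 CPM) and 58.7 CPM of SDHC (others 45.4 to 49.1 CPM). It had 282 CPM of UQCRC2 (others 232 to 244 CPM) and 206 CPM of ATP5PB (others 142 to 146 CPM). In the control group, replicate 2 had the highest ATP5MC3 share of the subunit c genes, 55.4%, where the others lay between 54.7% and 54.8%.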

How the results depend on the processing

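The count of members that rose was 27 to 35 and that of members that fell 7 to 10 when 1 library was left out. Of 540 member results with 1 library left out 505 kept their direction and side of the threshold, 26 lost the call and 9 gained one. Of 540 under the other settings 503 kept both, 12 lost the call, 22 gained one and 3 reversed. Upper-quartile scaling left 5 members lower instead of 9, and the reversed values, COX5A 0.11, SDHB 0.0944 and UQCRC1 0.0898 on the log2 scale, came from it. Replicate numbers did not pair the libraries: same-numbered deviations correlated at -0.256 to 0.271, and 3 of 10 libraries correlated best with their own number. With the replicate block 30 members rose and 8 fell, without COX7C and UQCRC2 (against 39.1% and 39.0% of all tested genes). The COX6A2 share difference was 10.01 percentage points with the block (adjusted p = 0.1875, exact permutation within numbers, which cannot go below 0.0625 unadjusted) and 9.16 to 11.0 with 1 library left out. With 1 library left out the difference was -0.0964 to 0.512 for the COX7A1 share, with both signs, 0.038 to 0.0731 for COX4I2, 1.11 to 2.47 for ATP5MC1, -1.55 to -0.0516 for ATP5MC2 and -1.41 to -0.716 for ATP5MC3. The strand setting of the counting, the origin of the replicates and overlapping exons limit these values, and the cause of each change of call was not tested.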
